A study of Vitis vinifera with 36 samples.

Results

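UDP-glycosyltransferases (UGTs) were examined in ripening berries of the grape bud sport ‘Nantaihutezao’ and of its parent ‘Summer Black’. The members were the genes whose Pfam annotation in the deposited table names the UDP-glucuronosyl and UDP-glucosyl transferase family. This rule uses no expression value, but it was chosen with earlier results of these data known. There were 203 members among 27751 genes, and 1 further gene with the same annotation was not used here. The sample labels call the bud sport ‘11-06-25’ and the parent ‘Sanbenti’, and the study's names are used in the text because the roles of bud sport and parent match. A bud sport is a somatic mutant shoot propagated from its parent vine, so each cultivar is 1 genotype. Vines of both cultivars were 3 years old. They grew under plastic film, and the groups differ only in cultivar and sampling time in the labels. Berries were taken from veraison (S5), when they begin to soften and colour, and then 7, 14, 21 and 28 days later (S6 to S9) and at maturity (S10). Each cultivar had 3 libraries at each of the 6 stages, 36 in all. The RNA came from pericarp in the methods and from berries in the labels. The libraries of a group are called biological replicates. The methods describe berries picked from a small number of clusters at each sampling, and do not say how they were divided among replicates. Replicates may thus share a cluster or a vine, and the p-values measure the spread between these samples.

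UGTs move a sugar, most often glucose, from a UDP-sugar to a small acceptor molecule. In plants the acceptors include flavonols and anthocyanidins, phenolic acids, stilbenes such as resveratrol, monoterpenols and hormones. The added sugar makes the product more soluble, often allows its storage in the vacuole and switches many hormones off, and in grape berries it gives anthocyanins and flavonols their stable form. Plant UGTs are numbered by sequence family, and the family number alone does not tell the acceptor. Names below are the best Swiss-Prot matches in the deposited table, mostly enzymes of other species, and none of the grape proteins was tested here.

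The libraries held between 15323095 and 20469617 reads counted on genes. Levels are given as CPM, a gene's reads relative to the scaled total of its library, and are compared only within a gene. Levels of different genes are compared by the deposited FPKM, which also divide by transcript length. A gene was called at a stage when edgeR's quasi-likelihood test gave a false discovery rate (FDR) under 0.05 over all genes tested and the absolute log2 fold change, bud sport over parent, was over 1. Libraries of 1 group correlated at 0.9881 or more with each other (Pearson r across genes, log scale). The bud sport at S5 was most like the parent at S6 (median r 0.9844), the parent at S5 stood apart (0.9414 with its nearest group, the bud sport at S5), and the parent at S10 was most like the bud sport at S8 (0.9833). A difference between cultivars at 1 stage therefore cannot be told apart from a difference in how far the berries had ripened. In whole pericarp, fewer cells of a type and less RNA per cell cannot be told apart either.

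Of the 203 members, 36 had no read in any library and 79, those included, stayed under 10 reads in every library. At least 1 stage had enough reads to test 108 members, and 64 could be tested at all 6. Mean FPKM over the 36 libraries was 10 or more for 25 members, between 1 and 10 for 39 and below 1 for 139. A few genes took most of the reads. The best Swiss-Prot match of VIT_03s0180g00200 is the cinnamate β-D-glucosyltransferase of strawberry, which makes the glucose ester of cinnamic acid, and this gene alone took 27.2% of all reads on members. The 6 members with the most reads took 62.4% and the first 10 took 70.4%.

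Summed over all 203 members, expression was higher in the bud sport libraries at each stage, and in both cultivars it was higher at S10 than at S5. At S5 the sum was 1945 ± 34.9 CPM in the bud sport and 1464 ± 19.2 CPM in the parent (SD, n = 3 each). At S6 it was 2371 ± 115 CPM in the bud sport and 1654 ± 32.8 CPM in the parent. At S8 it was 2515 ± 75.9 CPM in the bud sport and 1881 ± 47.7 CPM in the parent. At S10 it was 3133 ± 113 CPM in the bud sport and 2935 ± 74.5 CPM in the parent. The 3 bud sport libraries lay above the 3 parent libraries at every stage, and the log2 ratio was 0.41, 0.52, 0.44, 0.42, 0.21 and 0.09 at S5 to S10. An exact two-sided permutation test gave p = 0.1 at each stage, also after adjustment over the 6 stages, which is the smallest value that 3 against 3 libraries allow. The sign at S10 did not hold without VIT_03s0180g00200, the only member left out in this way, where the log2 ratio was -0.06. VIT_04s0023g01290, described below, was also much higher in the bud sport at S10 and was not left out.

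**Figure D1:**
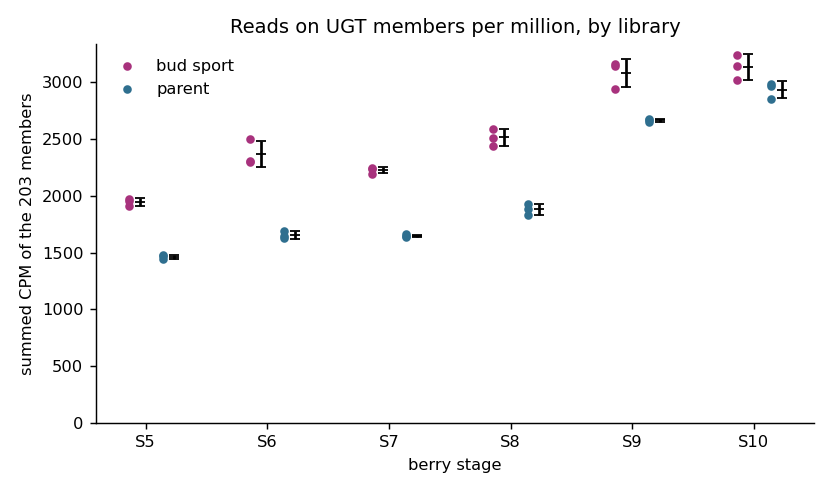
Summed CPM of the 203 members (y axis) in each library at stages S5 to S10 (x axis), bud sport on the left and parent on the right of each stage, with the mean and SD of 3 libraries in black. The bud sport libraries lie above the parent libraries at each stage, and the gap narrows to a log2 ratio of 0.09 at S10.

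The bud sport differed from the parent in many members, in both directions. At S5, 40 of the 99 members tested were called (14 higher, 26 lower in the bud sport), which is 40.4% of them beside 16.0% of all genes tested (7.46% higher, 8.58% lower). At S6, 24 of 85 were called (12 higher, 12 lower), beside 6.58% of all genes (2.69% higher, 3.89% lower). At S7, 26 of 82 were called (9 higher, 17 lower), beside 8.03% (3.5% higher, 4.52% lower). At S8, 18 of 72 were called (6 higher, 12 lower), beside 6.55% (2.75% higher, 3.79% lower), and without the first parent library of S8 the number was 11 (5 higher, 6 lower). At S9, 11 of 77 were called (7 higher, 4 lower), beside 5.27% (3.45% higher, 1.82% lower). At S10, 23 of 79 were called (9 higher, 14 lower), beside 8.65% (3.59% higher, 5.06% lower). Members tested had a median log2 fold change of -0.39 at S5 and between -0.21 and -0.04 at S6 to S10, while that of all genes tested lay between -0.02 and 0.01. The summed CPM and the median thus differ in sign, the sum being set by a few abundant members. A member with enough reads in only 1 cultivar could be tested, and its direction was then fixed in advance. An example is VIT_06s0004g01670 at S5, with 1 read in the bud sport and 35 in the parent. How many of the calls were of this kind was not counted, and they also enter the medians.

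**Figure D2:**
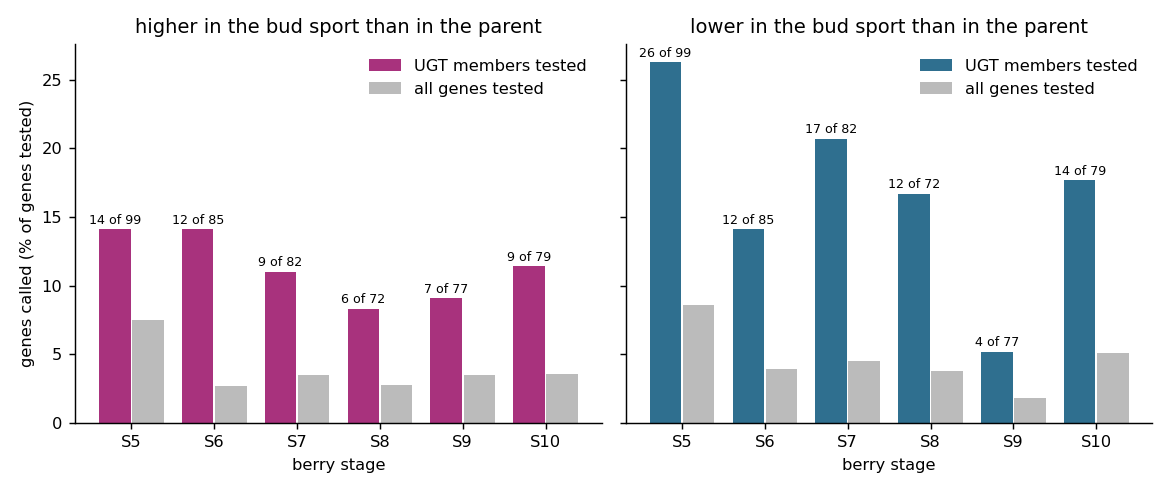
Genes called higher (left) and lower (right) in the bud sport than in the parent, as a percentage of the genes tested (y axis), at each stage (x axis). Coloured bars are the UGT members, with the number called of the number tested, and grey bars are all genes. At S5, 14 members of 99 were higher and 26 lower.

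Over all stages, 66 of the 108 members tested were called at least once, 26 of them higher and 48 lower. Of these, 8 were called in both directions, a count for which no share over all genes was computed. Of the genes of the whole table tested at any stage, 26.1% were called at least once, 13.1% higher and 15.5% lower. These shares are the background for the counts of each enzyme group given below, which also run over all stages. They are not matched for level of expression, and the share of all genes called was higher at low levels. The calls were spread over levels of expression. Of the 25 members with a mean FPKM of 10 or more, 14 were called at least once, beside 16.3% of all genes at that level. Between 1 and 10 FPKM 20 of 39 members were called, beside 32.4%, and below 1 FPKM 32 of the 44 tested members, beside 53.8%. Of the 26 members called higher, 10 were so at 1 stage only, and of the 48 called lower, 29 were. Some of these, such as VIT_06s0004g01670, could be tested at 1 stage only, so a lasting call was not possible. The matching share of all genes was not computed. Only VIT_08s0007g08910 was called in the same direction at all 6 stages. The identifiers place 146 members on 16 scaffolds that carry 5 or more members each. Where neighbouring members are near-identical copies, reads can be assigned to the wrong one, and this was not tested.

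The glucose ester group, named for enzymes that attach glucose to the carboxyl group of phenolic acids, had 4 members, all tested at S5, of which 2 were called, both higher in the bud sport. VIT_03s0180g00200 had the highest mean FPKM of all members (419). At S5 it had 357, 367 and 371 CPM in the bud sport, against 106, 107 and 116 CPM in the parent. At S10 it had 1140, 1220 and 1240 CPM in the bud sport, against 908, 902 and 965 CPM in the parent. It climbed through ripening in both cultivars, and the groups did not overlap at any stage. Its log2 fold change was 1.75 (SE 0.04, FDR 1.51e-23) at S5, 1.53 at S6, 1.34 at S7 and 1.08 (SE 0.05, FDR 9.27e-10) at S8. At S9 and S10 it was 0.65 (FDR 2.97e-05) and 0.37 (FDR 3.12e-08), below the fold threshold. VIT_03s0180g00320, with the same Swiss-Prot match and singled out after its values were seen, averaged 7.97 FPKM and was higher at S5, S6 and S7, with log2 fold changes of 1.89, 1.5 and 1.07.

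Of the other 5 members with the highest mean FPKM, 3 were called at 1 or more stages. VIT_17s0000g04750, matched to UGT89B1 of Arabidopsis, averaged 193 FPKM. It had 240, 231 and 240 CPM in the bud sport at S7, against 61.1, 62.6 and 69.9 CPM in the parent, a log2 fold change of 1.87 (SE 0.05, FDR 1.49e-15). It was also higher at S5 (1.35) and S6 (1.36), and was not called later. At S10 the order was the other way round, with 433, 448 and 462 CPM in the bud sport and 545, 518 and 534 CPM in the parent. VIT_03s0063g00050 is matched to the abscisate β-glucosyltransferase of azuki bean, which makes the inactive glucose ester of abscisic acid, the hormone that promotes ripening in grape. It averaged 117 FPKM, and at S5 it had 220, 226 and 222 CPM in the bud sport, against 107, 103 and 107 CPM in the parent (log2 fold change 1.09, SE 0.04, FDR 9.24e-20). With upper-quartile scaling in place of the scaling used, this log2 fold change was 0.98, below the threshold. At S10 it had 128, 138 and 149 CPM in the bud sport, against 272, 253 and 269 CPM in the parent, a log2 fold change of -0.94 (FDR 6.05e-13) that did not reach the fold threshold.

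VIT_12s0034g00130, matched to flavonoid 3-O-glucosyltransferase 6 of strawberry, an enzyme that glucosylates flavonols, averaged 55.9 FPKM and was called in both directions. It had 83.8, 80.6 and 83.5 CPM in the bud sport at S5, against 33.8, 38.5 and 40.8 CPM in the parent. It had 46.9, 46.1 and 48.4 CPM in the bud sport at S10, against 108, 107 and 105 CPM in the parent. The log2 fold change was 1.14, 1.17 and 1.14 at S5, S6 and S7 and -1.18 (SE 0.05, FDR 1.55e-16) at S10. In the bud sport the level was highest at S6, in the parent at S10. The other members of this level were not called at any stage. VIT_02s0033g00180, matched to UGT73C3, averaged 96.9 FPKM and had log2 fold changes between -0.39 and 0.11. VIT_17s0000g07790 averaged 42.0 FPKM and had log2 fold changes between -0.46 and 0.44. It is matched to UGT74B1, which in Arabidopsis acts in the synthesis of glucosinolates.

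**Figure D3:**
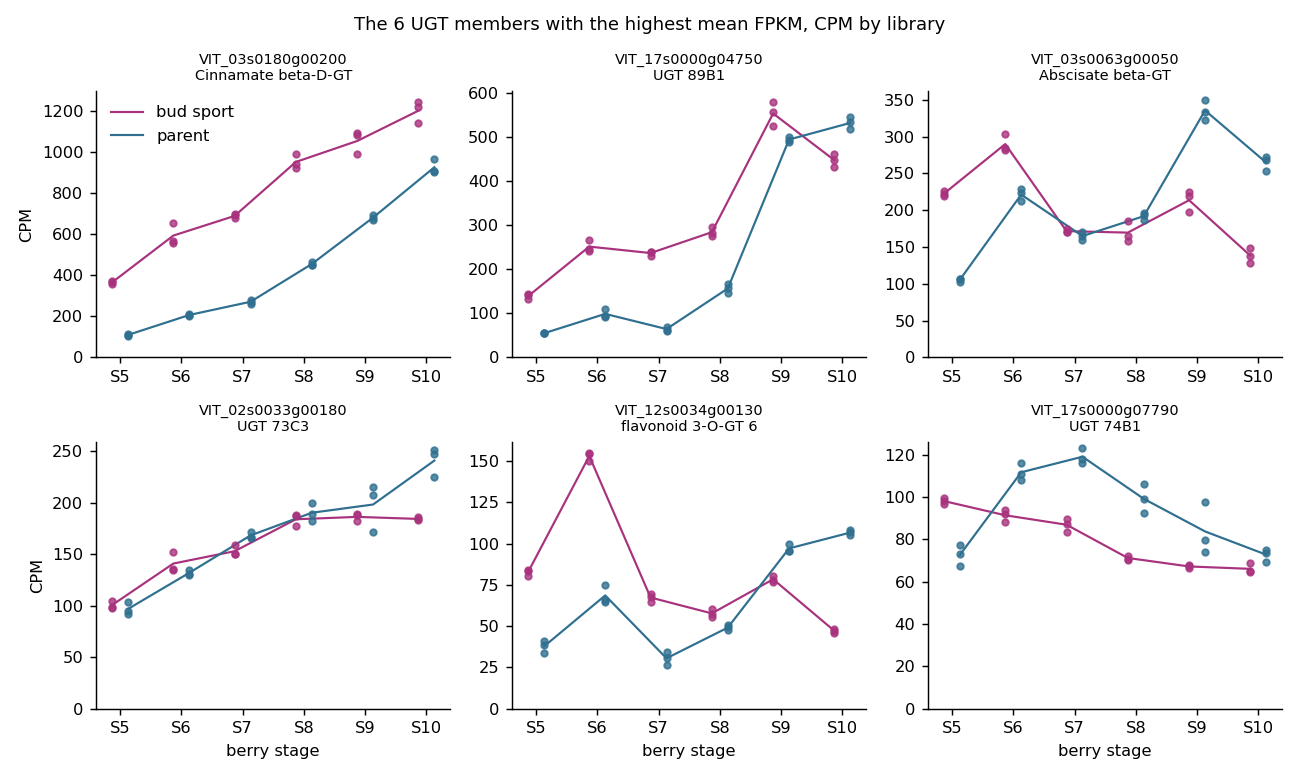
CPM in each library (points) and the mean of 3 libraries (lines) for the 6 members with the highest mean FPKM, at stages S5 to S10 (x axis), bud sport drawn left of the parent. VIT_03s0180g00200 is higher in the bud sport at each stage, and VIT_12s0034g00130 is higher at S5 to S7 and lower at S10.

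The anthocyanidin 3-O group holds 18 members whose matches attach glucose to position 3 of an anthocyanidin, the step that makes a stable anthocyanin. Of its 6 members tested, 4 were called higher and 1 lower at 1 or more stages, beside 13.1% and 15.5% of all genes. VIT_04s0023g01290, matched to anthocyanidin 3-O-glucosyltransferase 5 of cassava, had the highest log2 fold change of the called members at S6 to S9, leaving out those whose mean was under 1 CPM in both cultivars. It had 6, 7 and 0 reads in the bud sport and 1, 2 and 0 reads in the parent at S5, too few to test. At S7 it had 24.6, 20.4 and 23.1 CPM in the bud sport, against 0.321, 0.214 and 0.321 CPM in the parent. At S10 it had 243, 248 and 256 CPM in the bud sport, against 19.1, 20.0 and 18.6 CPM in the parent. The log2 fold change was 4.0 (SE 0.47, FDR 1.31e-06) at S6, 6.28 (SE 0.18, FDR 1.10e-14) at S7, 6.24 at S8, 5.12 at S9 and 3.70 (SE 0.05, FDR 9.42e-26) at S10. In FPKM it had 179 in the bud sport and 14.0 in the parent at S10. Both cultivars raised this gene along ripening. Its mean level in the bud sport at S7 (22.7 CPM) was near the mean of the parent at S10 (19.2 CPM), a comparison across stages that was not tested. VIT_16s0022g01970, with the same match, was lower at S5, S7 and S8, with log2 fold changes of -1.12, -1.72 and -1.89.

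The anthocyanin 5-O group holds 15 members matched to enzymes that add a second glucose, at position 5, to an anthocyanin that already has one. Of its 7 members tested, 1 was called higher and 4 lower at 1 or more stages, beside 13.1% and 15.5% of all genes, the first of them being called in both directions. VIT_09s0002g06590 averaged 29.2 FPKM. At S5 it had 13.5, 13.5 and 13.8 CPM in the bud sport, against 0.426, 0.746 and 0.743 CPM in the parent, 4.41 on the log2 scale (SE 0.18, FDR 1.33e-17). At S6 the cultivars overlapped, with means of 25.0 and 23.0 CPM in bud sport and parent. At S10 it had 8.79, 7.67 and 7.33 CPM in the bud sport, against 43.3, 36.7 and 36.5 CPM in the parent, a log2 fold change of -2.29 (SE 0.09, FDR 2.38e-16). The bud sport's level peaked at S7 and the parent's at S8. At S8 the log2 fold change was -1.14, and without the first parent library of that stage, which had 94.1 CPM beside 63.3 and 59.9 CPM in the others, it was -0.92 and no longer called. The other 3 called members share scaffold 05s0062 and averaged below 1 FPKM, where 53.8% of all genes were called at least once. VIT_05s0062g00430 was lower at S5 and S7, VIT_05s0062g00630 at S5 and S6 and VIT_05s0062g00640 at S5, S6 and S7, and at later stages they had too few reads to test. VIT_05s0062g00430 had 0.635, 1.05 and 0.741 CPM in the bud sport at S5, against 7.56, 8.26 and 6.74 CPM in the parent (log2 fold change -3.19, SE 0.21, FDR 3.74e-13).

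The anthocyanidin 5,3-O group (15 members) takes its name from a rose enzyme that glucosylates both positions. Of its 10 members tested, 2 were called higher and 5 lower at 1 or more stages (13.1% and 15.5% of all genes). VIT_18s0041g00840 was lower at S5, with 0.900, 0.737 and 0.635 CPM in the bud sport and 3.89, 3.78 and 3.56 CPM in the parent (log2 fold change -2.29, FDR 1.19e-08), and at S7. VIT_16s0050g01660 appeared late in both cultivars and was lower in the bud sport at S10, with 3.11, 2.66 and 3.96 CPM in the bud sport and 7.12, 6.42 and 8.09 CPM in the parent (log2 fold change -1.15, FDR 3.51e-06). The flavonoid 3-O group of strawberry matches, with 22 members, had 13 tested, of which 3 were called higher and 7 lower on the same background. VIT_03s0017g01990, at most 1.51 CPM in any library, was lower at S5 (log2 fold change -1.38, FDR 0.00946) and higher at S6 (1.44, FDR 0.0113). Leaving out the third parent library at S5 (FDR 0.114) or the second at S6 (FDR 0.0598) ended each call.

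In the sugar-chain group (22 members), whose matches attach a sugar to a sugar already bound, 6 members were tested, of which 1 was called higher and 4 lower at 1 or more stages, beside 13.1% and 15.5% of all genes. VIT_00s0218g00220, matched to UGT91A1, was called lower at S10 than at S5 in both cultivars (log2 fold change -6.22 in the bud sport and -4.31 in the parent). At S5 it had 18.7, 17.8 and 16.6 CPM in the bud sport, against 41.5, 47.2 and 41.5 CPM in the parent. At S8 it had 0.857, 1.12 and 0.748 CPM in the bud sport, against 9.57, 7.31 and 6.62 CPM in the parent. The groups were apart at each stage. The log2 fold change was -1.28 (SE 0.07, FDR 1.10e-14) at S5, -0.55 at S6 (FDR 0.001, below the fold threshold) and -2.78, -3.08, -3.33 and -3.20 at S7 to S10. VIT_15s0046g01980, matched to a putative UDP-rhamnose:rhamnosyltransferase of strawberry, changed direction. It was higher at S5 (5.98, 5.74 and 5.82 CPM in the bud sport, 2.13, 3.36 and 2.55 CPM in the parent) and lower at S6 (2.27, 2.18 and 2.65 CPM in the bud sport, 5.49, 6.00 and 5.29 CPM in the parent). It was higher again at S9 (log2 fold change 2.62, FDR 0.00313) and at S10, where it had 40, 43 and 35 reads in the bud sport and 3, 3 and 1 in the parent. The ratio of these reads, scaled by library, was 16.7, with a 95% exact interval of 7.86 to 42.5 that covers counting error only. At S5, leaving out the first parent library gave a log2 fold change of 0.99, below the threshold.

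The zeatin or abscisate group joins the matches to hormone enzymes. VIT_08s0007g08910 is matched to the zeatin O-glucosyltransferase of lima bean, which stores the cytokinin zeatin as a glucoside. It was lower in the bud sport at all 6 stages. At S5 it had 1.59, 1.53 and 1.64 CPM in the bud sport, against 11.4, 10.5 and 10.8 CPM in the parent (log2 fold change -2.77, SE 0.15, FDR 9.45e-15). At S10 it had 0.429, 0.107 and 0.535 CPM in the bud sport, against 1.62, 1.73 and 1.62 CPM in the parent (-2.19, SE 0.42, FDR 0.00012). The values were -3.93, -1.18, -3.05 and -1.88 at S6 to S9, and the groups were apart at each stage. The calls at S7 (FDR 0.0244) and S9 (FDR 0.0192) were the least firm. At S7 the FDR was 0.121 without the third bud sport library and 0.0918 without the third parent library, and 0.0631 with DESeq2. At S9 it was 0.0545, 0.0915 and 0.064 without bud sport replicate 1 or 2 or parent replicate 3. Its neighbour by identifier VIT_08s0007g08920, with the same match, had at most 0.323 CPM in any library up to S9 and reached 0.589, 0.959 and 0.803 CPM in the bud sport at S10, against 1.24, 1.62 and 1.46 CPM in the parent (log2 fold change -0.87, FDR 0.0398, not called).

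VIT_06s0004g06370, matched to UGT71C4, was the most expressed member that stayed higher at 5 stages among those tested at all 6. At S8 it had 20.8, 17.7 and 20.9 CPM in the bud sport, against 2.22, 4.06 and 2.69 CPM in the parent, 2.74 on the log2 scale (SE 0.17, FDR 5.41e-08). At S5 the groups were already apart, with 7.67, 9.0 and 7.52 CPM in the bud sport and 4.37, 3.89 and 4.57 CPM in the parent, but the log2 fold change of 0.92 stayed under the threshold. It was 1.63, 2.32, 1.98 and 1.47 at S6, S7, S9 and S10. VIT_00s0324g00060, matched to UGT85A2, was a rare transcript, at most 3.46 CPM, with calls at S5 to S9. At S5 it had 0.900, 1.16 and 1.38 CPM in the bud sport and no read in the 3 parent libraries. Against the floor of 3 counts per library, this was at least 7.17-fold higher in the bud sport. The log2 fold change was 3.61, 2.77 and 2.66 at S6, S7 and S9. Without the first parent library of the stage it was 5.7 at S6 and 3.27 at S9. The call at S8 (1.44, FDR 0.0217) was lost without the first (FDR 0.114) or the third (0.0784) bud sport library or the first parent library (0.0597). At S10 the groups overlapped. Its neighbour by identifier VIT_00s0324g00070, with the same match, was lower at S6, S8 and S10, with log2 fold changes of -1.04, -1.04 and -1.33.

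**Figure D4:**
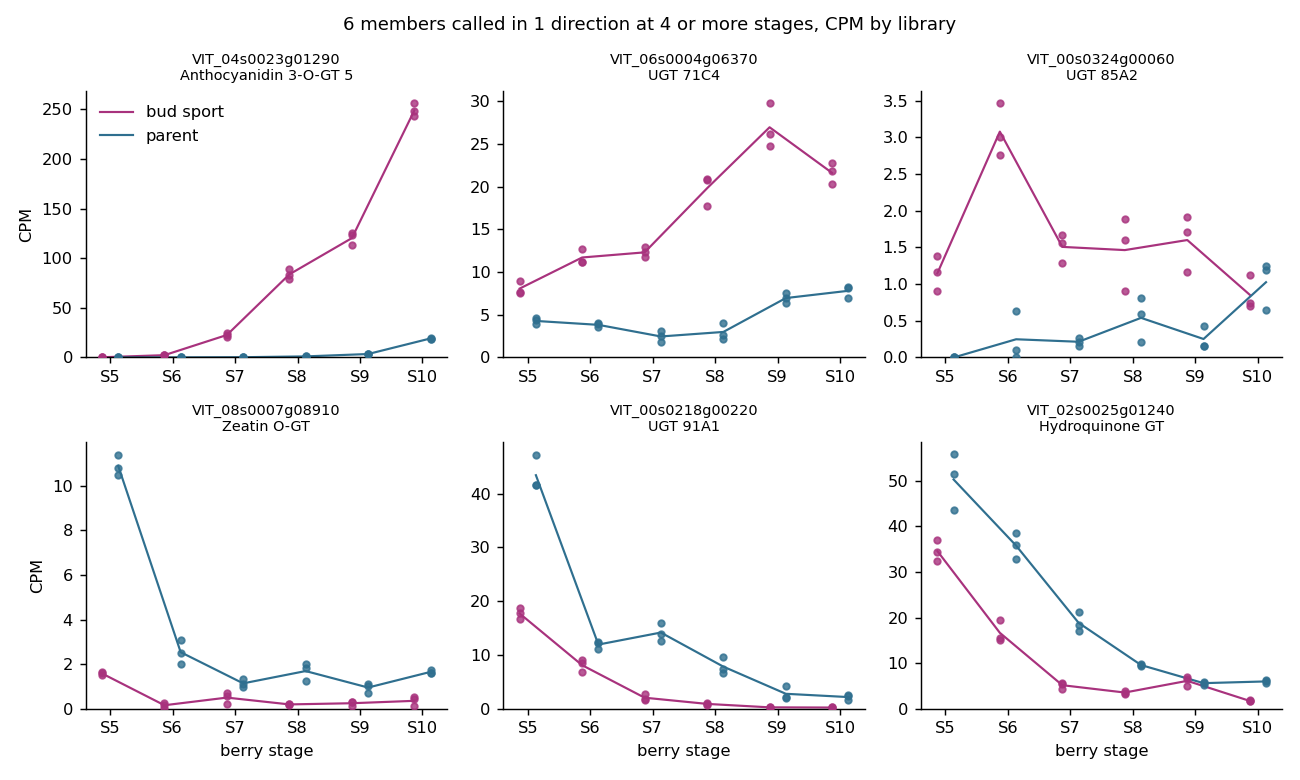
CPM in each library (points) and the mean of 3 libraries (lines) at stages S5 to S10 (x axis) for 6 members called in 1 direction at 4 or more stages, bud sport drawn left of the parent. The upper row was called higher in the bud sport, reaching 256 CPM in VIT_04s0023g01290 at S10, and the lower row lower. The cultivars overlap at S10 in VIT_00s0324g00060 and at S9 in VIT_02s0025g01240. VIT_03s0180g00200, also called at 4 stages, is drawn with the highest members.

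In the numbered families, the UGT85 group was the largest, with 24 members, 16 of them tested, 3 called higher and 6 lower at 1 or more stages, against shares of 13.1% and 15.5% in all genes. VIT_18s0001g06120, matched to UGT85A3, was lower at S7 (log2 fold change -1.36, FDR 0.000122) and higher at S9 (1.39, FDR 9.38e-05). At S9 it had 8.84, 9.24 and 9.86 CPM in the bud sport, against 3.89, 2.91 and 3.99 CPM in the parent. Under glmTreat, edgeR's test against a log2 fold change of 1, the FDR of this gene was 0.442 at S7 and 0.182 at S9, so neither call held. VIT_18s0001g05950 is matched to UGT85A1, which glucosylates zeatin in Arabidopsis, and was lower at S6 (-1.53, FDR 0.0028) before it faded in both cultivars. In the UGT88 group, VIT_16s0050g01680 was lower at S5, S6 and S7 (-1.05, -1.23 and -1.69) and higher at S9 and S10 (2.17 and 3.12). At S7 it had 0.645, 0.969 and 0.429 CPM in the bud sport, against 2.73, 2.19 and 1.71 CPM in the parent. At S10 it had 1.77, 1.86 and 1.23 CPM in the bud sport, against 0.162, 0.270 and 0.108 CPM in the parent. In the bud sport this gene was lowest at S8 and returned, and in the parent it did not return. Its call at S5 was the weakest, with log2 fold changes between -0.995 and -0.97 without bud sport replicate 2 or 3 or parent replicate 1. VIT_06s0004g07240, matched to UGT87A1, was lower at S5 (-2.23, FDR 1.17e-07) and higher at S9 (2.08, FDR 0.00965). At S9 it had 1.02, 1.28 and 1.12 CPM in the bud sport, against 0.432, 0.269 and 0.108 CPM in the parent, and the FDR was 0.0521 without the second bud sport library.

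The hydroquinone group has 4 members matched to arbutin synthase of Rauvolfia, which glucosylates hydroquinone, and 3 were tested. VIT_02s0025g01240, singled out after its values were seen, was lower at S6, S7, S8 and S10, with log2 fold changes of -1.09, -1.87, -1.41 and -1.79. At S7 it had 5.59, 4.42 and 5.52 CPM in the bud sport, against 21.3, 18.3 and 17.0 CPM in the parent, while at S9 the groups overlapped. VIT_15s0046g01190, also outside the rule for named genes, was higher at S5 (1.11) and lower at S10 (-1.40). In the UGT76 group, VIT_06s0004g05780 was lower at S7, S8 and S10 (-1.12, -1.02 and -1.68) and VIT_13s0019g02860 at S5, S6 and S7 (-1.31, -2.13 and -2.05). In the UGT74 group, VIT_05s0094g00990 was lower at S5, S8 and S10 (-1.48, -1.33 and -1.60). It is matched to UGT74F2, which makes the glucose ester of salicylic acid in Arabidopsis. The 2 sterol members were tested at each stage and had no call, with median log2 fold changes between -0.30 and 0.28.

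**Figure D5:**
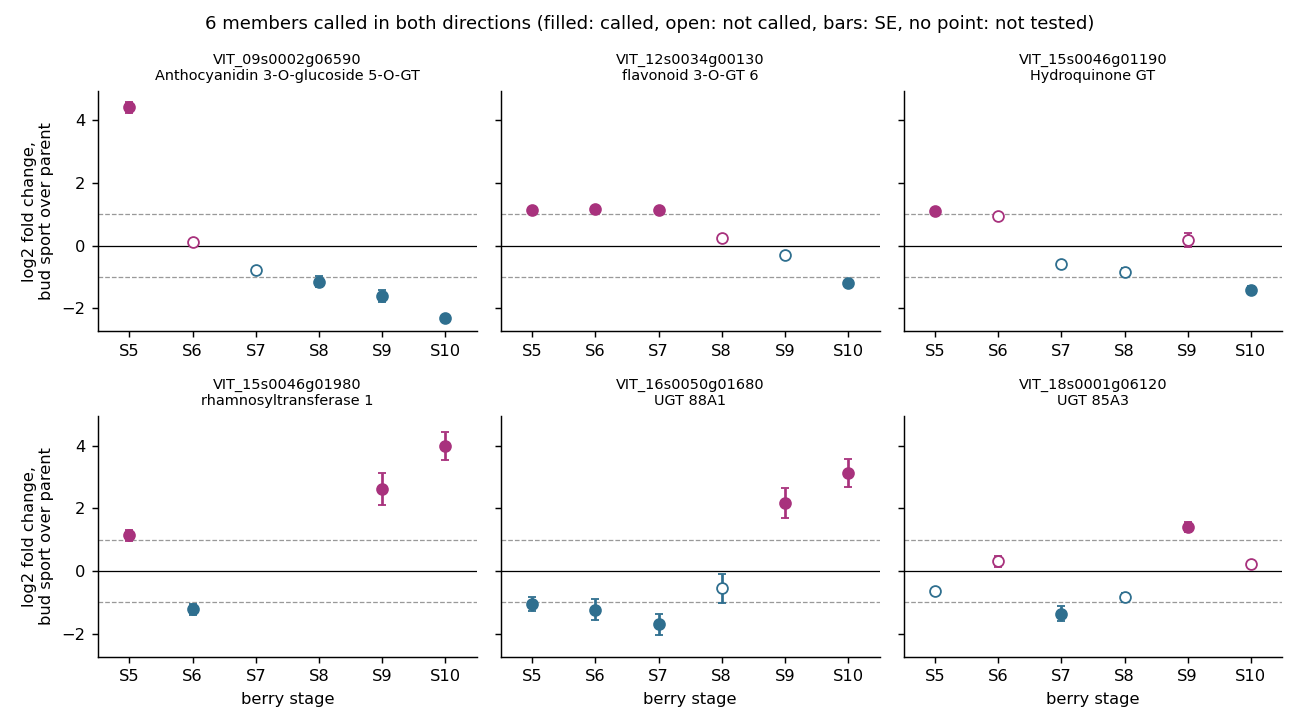
Log2 fold change, bud sport over parent, with its SE (y axis) at stages S5 to S10 (x axis) for 6 of the 8 members called in both directions, the other two being VIT_03s0017g01990 and VIT_06s0004g07240. Filled points were called, open points were not, and a stage without a point was not tested. VIT_09s0002g06590 goes down from 4.41 at S5 to -2.29 at S10, and VIT_16s0050g01680 lies below zero at S5 to S8 and above it at S9 and S10.

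A single model of the 36 libraries tested whether the cultivar difference changed from stage to stage. Of 109 members tested, 71 (65.1%) passed, close to the 63.6% of all genes. In the ripening course itself, S10 against S5, the bud sport had 58 of 96 members called (18 higher, 40 lower at S10), beside 28.7% of all genes (11.1% higher, 17.6% lower). The parent had 78 of 108 (23 higher, 55 lower), beside 32.0% of all genes (12.9% higher, 19.1% lower). Of the 95 members tested in both cultivars, 14 (14.7%) were called higher and 34 (35.8%) lower at S10 in both, beside 6.26% and 11.8% of all genes. Members had a median of -0.65 on the log2 scale in the bud sport and -1.21 in the parent, beside 0.01 and -0.03 for all genes. A member with enough reads at only 1 of the stages compared could be tested, and its direction was then fixed in advance. In the cultivar comparisons, 44 of 108 tested members had a mean below 1 FPKM, against 1988 of 16510 genes. No background of genes at a like level was computed for S10 against S5. VIT_04s0023g01290 gained most among those called higher in both, with 249 ± 6.44 CPM at S10 and 0.229 ± 0.200 CPM at S5 in the bud sport. In the parent it had 19.2 ± 0.739 CPM at S10, against 3 reads in all at S5, a ratio of 361 (95% exact interval 123 to 1750). VIT_16s0050g01660 reached 3.24 ± 0.660 CPM at S10 in the bud sport and 7.21 ± 0.838 CPM in the parent. VIT_08s0007g08920 had no read in the parent at S5 and was at least 9.01-fold higher there at S10. VIT_05s0062g00640, VIT_18s0041g00840 and VIT_18s0001g05950 had the lowest mean log2 fold changes among those called lower in both. In the bud sport the first of these had 1.41 ± 0.427 CPM at S5 and no read at S10, at least 8.79-fold lower, and VIT_18s0041g00840 was at least 4.72-fold lower. VIT_18s0001g05950 had no read at S10 in the parent, at least 18.5-fold lower than at S5, and in the bud sport its ratio of S10 to S5 was 0.0085 (95% exact interval 0.000213 to 0.0483). VIT_11s0052g01630, the 1 member called in opposite directions, was lower at S10 in the bud sport (log2 fold change -1.32) and higher in the parent (1.54).

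The stage at which the cultivars are compared bears on these counts, and a comparison with later parent stages was added after the likeness of the libraries was seen. The bud sport at S5 against the parent at S6 gave 7 calls among 88 members, all higher in the bud sport, beside 3.79% of all genes (2.86% higher). Against the parent at S7 it gave 25 calls among 87, beside 9.63%. At S7 against the parent at S8 there were 9 calls among 73, beside 5.11%, against the parent at S9 there were 8 among 74, beside 5.7%, and at S8 against the parent at S9 there were 7 among 71, beside 3.92%. At S8 against the parent at S10 there were 12, beside 4.5%. At S6 against the parent at S7 the number did not drop, with 27 calls, beside 7.67%, and against the parent at S8 it was 21, beside 7.93%. At S9 against the parent at S10 it was 17 of 76, beside 4.97%. The labels count days from the veraison of each cultivar and give none for maturity, so the difference in berry age is not known. The paper reports that the bud sport matures earlier than the parent. Neither alignment is a matched one.

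The enzymes that supply UDP-sugars and those that remove glucose from glycosides were taken from the annotation as 2 further lists. The UDP-sugar list had 22 genes, of which 12 could be tested at S5 and 10 at each later stage. At S5 VIT_07s0005g00750, a sucrose synthase, which splits sucrose into fructose and UDP-glucose, had a mean of 1720 CPM in the bud sport and 852 CPM in the parent (log2 fold change 1.02, FDR 6.34e-20). VIT_17s0053g00700, another sucrose synthase, was lower at S5 (-1.56), with means of only 0.528 CPM in the bud sport and 1.58 CPM in the parent. VIT_04s0044g00710, UTP-glucose-1-phosphate uridylyltransferase, had a log2 fold change of 0.95 at S5, under the threshold. VIT_02s0025g01560, a UDP-glucose 4-epimerase, was higher at S7 and S8 (1.09 and 1.29). Its means at S7 were 2.33 CPM in the bud sport and 1.09 CPM in the parent. VIT_02s0025g01580, with the same match, was not called at any stage and had log2 fold changes between -0.28 and 0.89. At S6, S9 and S10 edgeR and DESeq2 both called 0 genes of this list, with 6, 3 and 9 genes at an unadjusted p under 0.05. Of all genes, edgeR called 6.58%, 5.27% and 8.65% at these stages. The summed level at S5 was between 4020 and 4090 CPM in the bud sport and between 2520 and 2630 CPM in the parent. At S6 the groups overlapped, and at S7 to S9 the bud sport libraries were lower. At S8 the sum was between 3460 and 3590 CPM in the bud sport and between 3740 and 3940 CPM in the parent. At S10 it was between 3310 and 3390 CPM in the bud sport and between 3180 and 3250 CPM in the parent.

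Glycoside hydrolase family 1, to which the plant β-glucosidases belong, had 31 genes, of which 15 were tested. At S5, 4 were called higher and 1 lower in the bud sport, beside 7.46% and 8.58% of all genes. At S10, 3 were called lower, beside 5.06%. VIT_13s0064g01750, matched to β-glucosidase 13, had means of 114 CPM in the bud sport and 8.94 CPM in the parent at S5 (log2 fold change 3.68) and of 0.13 CPM in the bud sport and 2.41 CPM in the parent at S10 (-4.20). VIT_07s0005g00390, matched to β-glucosidase 11, had 88.9 CPM in the bud sport and 7.42 CPM in the parent at S5 (3.59) and was not called at later stages. The summed level was 1370 CPM in each bud sport library at S5 and between 642 and 646 CPM in the parent libraries. At S10 it was between 470 and 487 CPM in the bud sport and between 721 and 731 CPM in the parent.

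Markers of green tissue, seed, ripening flesh and skin, and cuticle moved with the cultivar at some stages. Of the 25 chlorophyll a/b-binding genes, 7 of 21 tested were called lower in the bud sport at S7, beside 4.52% of all genes. Their summed levels at S7 were 1030 to 1050 CPM in the bud sport and 1460 to 1660 CPM in the parent. At S10 the order was reversed, with 887 to 950 CPM in the bud sport and 559 to 574 CPM in the parent. The 10 seed genes, 4 of them without a read in any library, summed to 10.7 to 12.9 CPM in the bud sport at S5 and 4.37 to 4.79 CPM in the parent. Of the 4 tested, 2 were called higher in the bud sport, beside 7.46% of all genes. At S7 the seed genes summed to 22.9 to 26.0 CPM in the bud sport and 8.61 to 11.9 CPM in the parent, and 1 of 3 was called higher, beside 3.5%. At S9, 1 of 3 was called lower and 0 higher, beside 1.82% and 3.45%. Over all stages the sum of the seed genes stayed at or below 26.0 CPM. The 26 thaumatin-family genes are abundant in ripening grape flesh and skin. At S5 they summed to 1020 to 1120 CPM in the bud sport and 407 to 450 CPM in the parent. Of the 15 tested at S5, 4 were called higher and 3 lower in the bud sport, beside 7.46% and 8.58% of all genes. At S6 the list summed to 2670 to 3000 CPM in the bud sport and 635 to 762 CPM in the parent. There 3 of 15 were called higher and 3 lower, beside 2.69% and 3.89%, and the median log2 fold change was -0.01. At S7 the list summed to 3480 to 3680 CPM in the bud sport and 1110 to 1220 CPM in the parent. There 4 of 11 were called higher and 0 lower, beside 3.5% and 4.52%. At S10 the list summed to 2280 to 2460 CPM in the bud sport and 1410 to 1480 CPM in the parent. The 26 cuticle genes were 3-ketoacyl-CoA synthases. At S5 they summed to 1150 to 1240 CPM in the bud sport and 840 to 980 CPM in the parent. Of the 12 tested at S5, 2 were called higher and 2 lower, beside 7.46% and 8.58% of all genes. At S10 the cuticle genes summed to 940 to 1090 CPM in the bud sport and 971 to 1000 CPM in the parent. The part of these marker lists in the results on UGTs was not tested.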

How the data were processed

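Illumina reads of the 36 libraries were aligned by the authors to the Vitis vinifera genome with TopHat 2. The authors deposited raw read counts per gene, unnormalized and per library. They also deposited FPKM values from Cuffdiff, scaled by transcript length and library size. The counting tool, annotation release and strandedness are not given in the sources used here. Fold changes and FDR of the authors' own comparisons in the same table were not used.

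Genes passing filterByExpr (at least 10 reads, total of 15) were scaled by TMM and tested with glmQLFit and glmQLFTest of edgeR 4.0.16, on the 6 libraries of a stage, on the 18 libraries of a cultivar for S10 against S5, and on all 36 for the interaction of cultivar and stage. P-values were adjusted by Benjamini-Hochberg over all genes tested. SE is the absolute log2 fold change divided by the square root of F. FPKM served only to compare levels between members. Read totals were 15323095 to 20469617 per library, and intervals and floors cover counting error only. The steps were tested on simulated data.

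Members were grouped by Swiss-Prot name. Members, lists and rules were chosen with earlier results of these data known. Named genes were members tested at all 6 stages and called the same way at 5 or 6, the called members with the highest and the lowest log2 fold change of each stage (means under 1 CPM in both cultivars left out), the 6 members with the highest mean FPKM, up to 6 called in both directions, and the 3 highest and 3 lowest at S10 against S5 among those called the same way in both cultivars. Other members, and the genes of the further lists, were named after their values were seen. The settings varied were the tool (DESeq2 1.42.0), the scaling (upper quartile), the filter (none), the libraries fitted (all 36), a replicate block, glmTreat, each library left out, and later parent stages, which were added after the data were seen. Python 3.11.15 with scipy 1.17.1 and R 4.3.3 were used.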

Additional observations from a re-analysis of the deposited data

Results flagged for a closer look

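The 8 members below were called higher in the bud sport at 1 or more stages and lower at another. How many of all genes were called in both directions was not computed. The interaction of cultivar and stage, tested with edgeR on all 36 libraries, passed the threshold for each. Members picked for opposite calls in these same libraries were almost bound to pass, so this is no separate support. Of all genes tested, 63.6% passed that interaction test. VIT_12s0034g00130, matched to flavonoid 3-O-glucosyltransferase 6, had an interaction FDR of 9.89e-26, and VIT_15s0046g01190, matched to hydroquinone glucosyltransferase, 1.61e-16. VIT_09s0002g06590, matched to an anthocyanin 5-O-glucosyltransferase, had 4.06e-15, and VIT_15s0046g01980, matched to a rhamnosyltransferase, 1.64e-13. VIT_18s0001g06120 (UGT85A3) had 1.03e-11, VIT_16s0050g01680 (UGT88A1) 7.6e-11, VIT_06s0004g07240 (UGT87A1) 1.39e-05 and VIT_03s0017g01990, matched to flavonoid 3-O-glucosyltransferase 3, 0.00588. A difference between the cultivars at a stage cannot be told apart from a difference in how far the berries had ripened.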

How the results depend on the processing

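Under glmTreat, which tests against a log2 fold change of 1 and so needs a larger change for a call, the counts of called members were 25, 10, 11, 6, 4 and 14 along the 6 stages. Of the 8 members called in both directions, 2 were so under glmTreat (VIT_09s0002g06590 and VIT_12s0034g00130), and VIT_03s0017g01990 and VIT_18s0001g06120 had no call left. Against the parent 1 stage later the counts were 7 at S5, 9 at S7, 7 at S8 and 17 at S9, and against the parent 2 stages later 25 at S5 and 8 at S7. Leaving out 1 library gave 11 to 16 calls at S8, the 11 without parent replicate 1, and for the other stages 40 to 46 (S5), 21 to 27 (S6), 24 to 26 (S7), 9 to 11 (S9) and 20 to 25 (S10). With no filter on low counts, 1 glycoside hydrolase gene was called at S7, where edgeR and DESeq2 called 0 with the filter and 9 had an unadjusted p under 0.05. The log2 ratio of summed CPM at S10 was -0.055 without the member with the most reads (exact permutation p = 0.2). The causes of the other changes were not tested. Upper-quartile scaling at S5 moved the median of all genes by -0.11. The replicate letters did not pair the libraries (correlation of same-letter deviations -0.0819 to 0.123), and with a replicate block the counts at S5 to S10 were 40, 23, 26, 18, 11 and 22, with 58 and 79 for S10 against S5 in bud sport and parent and 70 for the interaction. Low counts limit the result: 95 of the 203 members had too few reads to test at any stage.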
